A study of Rattus norvegicus with 6 samples.

Results

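The subunits of oxidative phosphorylation were followed in liver RNA from low-protein and control rats, on 96 probe sets that stand for 86 genes, out of 31042 probe sets tested. The 96 are all probe sets with a single gene symbol that begins with Nduf, Uqcr, Cox4 to Cox8 or Atp5, or that reads Sdha, Sdhb, Sdhc or Sdhd, so they were chosen by name and not by value. They fall into 39 probe sets for subunits of complex I, 7 for assembly factors of complex I, which share the Nduf stem without being subunits, 5 for complex II, 8 for complex III, 17 for complex IV and 20 for complex V. A further 7 probe sets carry such a name beside a second symbol and were kept apart.

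Each of the 6 Affymetrix arrays held liver RNA of male Wistar rats, 6 weeks old on arrival, 3 from the low-protein diet (5P) and 3 from the control diet (15P) of the same energy content. Rats had 4 days on commercial pellets and 4 days of training to eat the control diet in a daytime window. They then ate 5P or 15P for 8 hours, and the liver was taken 16 hours after food was withdrawn. Both groups had therefore been fasted, neither carried a genetic change, and since no label states that the arrays are separate animals, a p-value here speaks of the spread among these 6 samples and no further.

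Oxidative phosphorylation makes most of the ATP of a cell. Complexes I and II of the inner mitochondrial membrane pass electrons from NADH and succinate to coenzyme Q, complex III passes them on to cytochrome c, complex IV hands them to oxygen, and complex V uses the resulting proton gradient to make ATP. In the fasted liver this chain reoxidises the NADH and FADH2 that fatty acid oxidation yields. The subunits among the 96 probe sets are encoded in the nucleus and imported, while a small set of core subunits is encoded in mitochondrial DNA.

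RNA for the respiratory chain differed little between the diets. None of the 96 probe sets passed the test, a linear model per probe set with moderated variance (limma) and Benjamini-Hochberg adjustment over all 31042 probe sets at 0.05. Of all probe sets 41 passed, or 0.132%, with 0.0354% higher and 0.0966% lower in low-protein livers. At an unadjusted p under 0.05 there were 7 of the 96 members, 6 higher and 1 lower in low-protein livers, which is 7.29% of the members against 15.4% of all probe sets (7.83% higher and 7.58% lower). The groups did not overlap for 17 members, or 17.7%, against 21.6% of all probe sets. The log2 fold changes, low protein minus control throughout, ran from -0.27 for Sdha to 0.50 for a probe set of Atp5if1. Their median was 0.05, against 0.03 over all probe sets, and 67 of the 96, or 69.8%, were above 0, against 58.1% of all probe sets and 48.9% of those at or above the median intensity. That count depended on how arrays were scaled, being 59 with arrays centred on their medians and 81 with arrays centred on their 75th percentiles.

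The spread of the members was narrow. Their fold changes had an SD of 0.12 on the log2 scale, against 0.23 over all probe sets. For 89 of 96 members, or 92.7%, the measured change was at most 0.25 on the log2 scale in either direction, against 82.0% of all probe sets. The model's 95% interval lay inside a 1.5-fold change in both directions for 92 members and inside a 2-fold change for all 96. The 4 whose interval reached past 1.5-fold were probe sets of Ndufb7, Ndufaf4 and Atp5if1, the last with 2 probe sets.

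**Figure D1:**
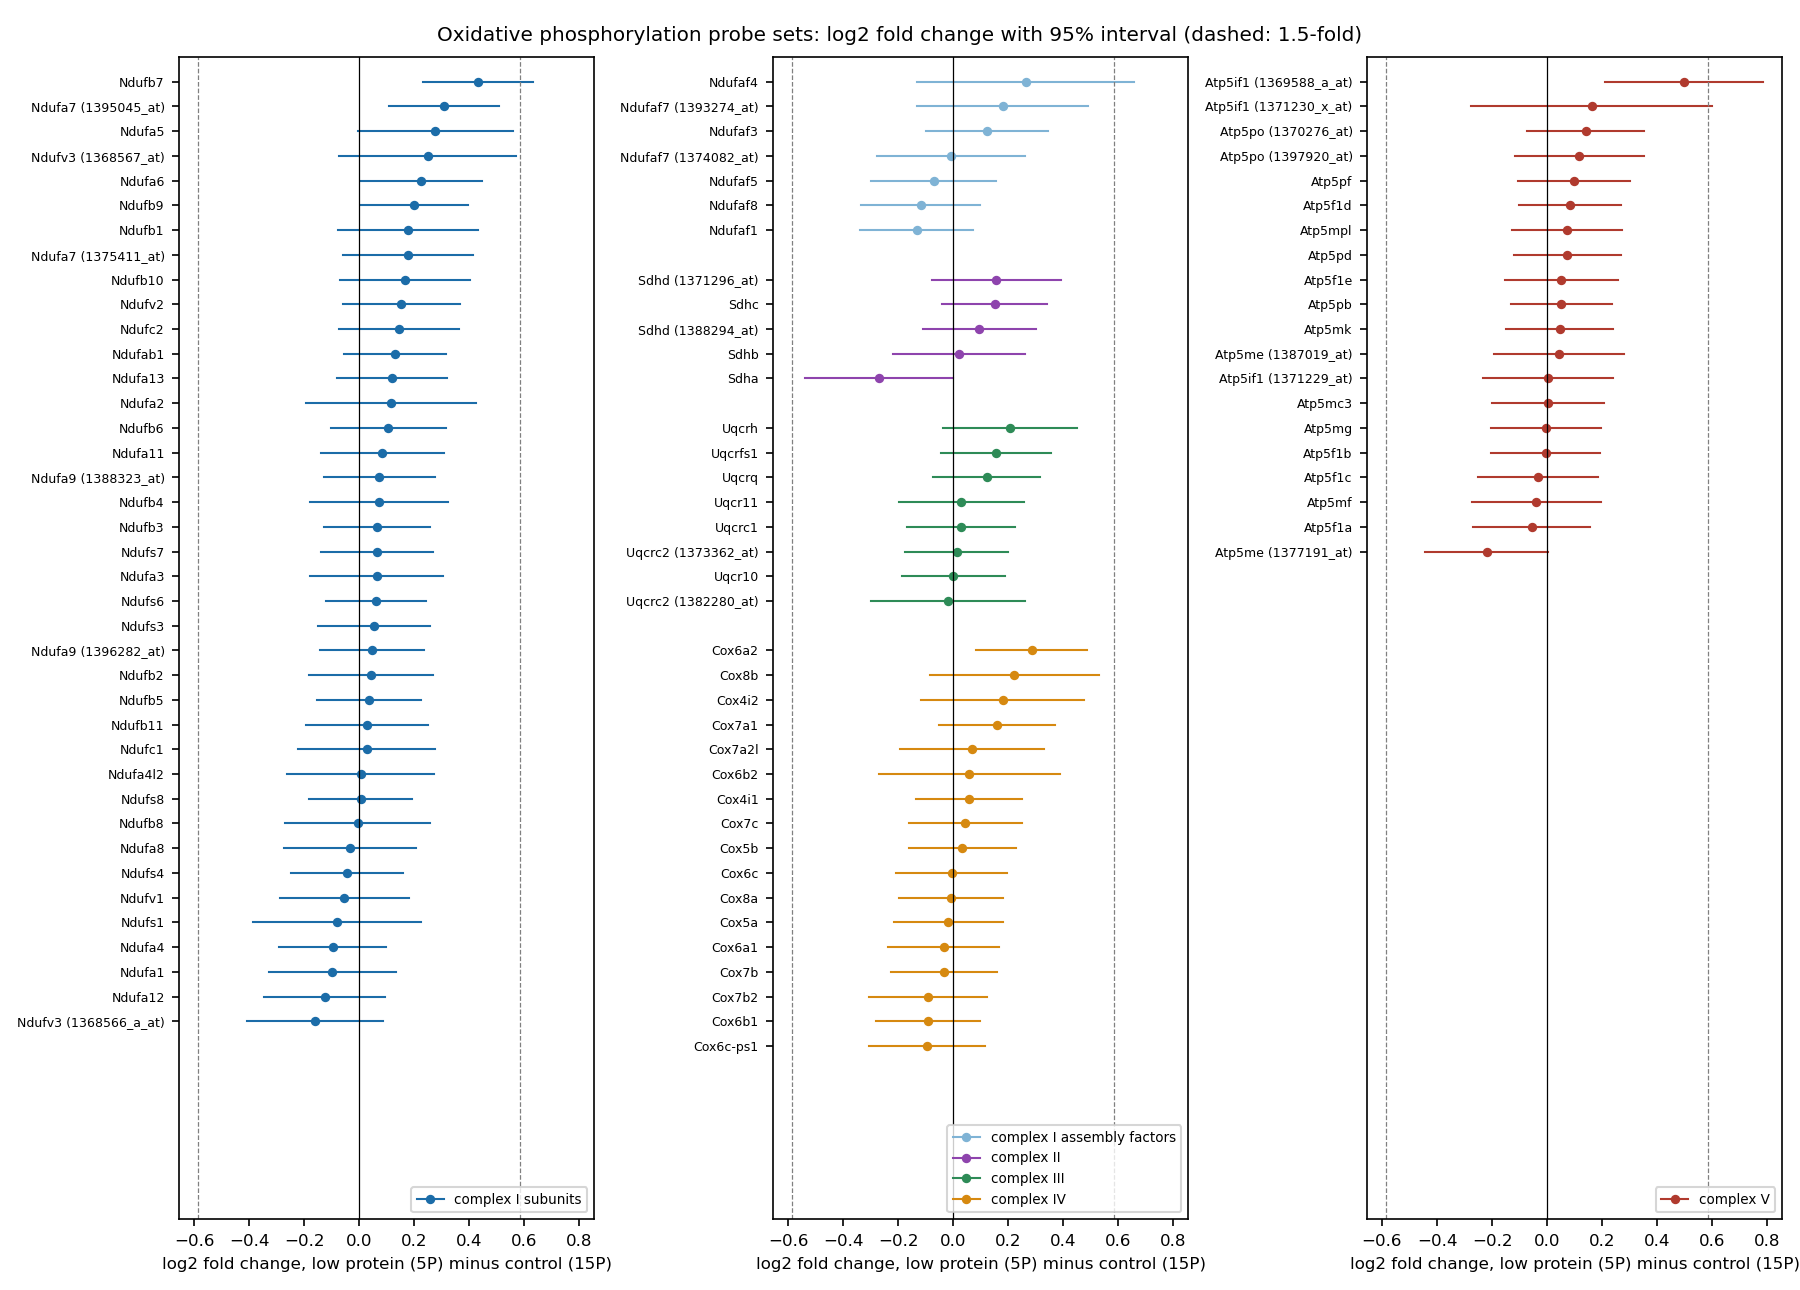
Log2 fold change (low protein minus control, x axis) with its 95% interval for each of the 96 probe sets (y axis), by respiratory complex; dashed lines mark a 1.5-fold change. Most intervals cross 0, and 92 of 96 lie between the dashed lines.

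Many members were among the brightest probe sets of the array. Of the 96, 67 lay in the brightest 5% by mean intensity, a bin of 1553 probe sets with 10 calls (0.644%). In that bin 97.0% of members were within 0.25 of no change, against 72.0% of all probe sets of the bin, and 5.97% of members had an unadjusted p under 0.05, against 25.4%. Groups did not overlap for 16.4% of members in the bin, against 35.4%. At or above the median intensity, 7.06% of 85 members had an unadjusted p under 0.05, against 21.1% of probe sets, and 17.6% did not overlap, against 26.9%. Within the brightest 5%, 73.1% of members were above 0, against 52.3% of all probe sets there. The median fold change in that bin was 0.05 for members and 0.01 for all its probe sets. The part of brightness in the narrow spread was not tested.

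**Figure D2:**
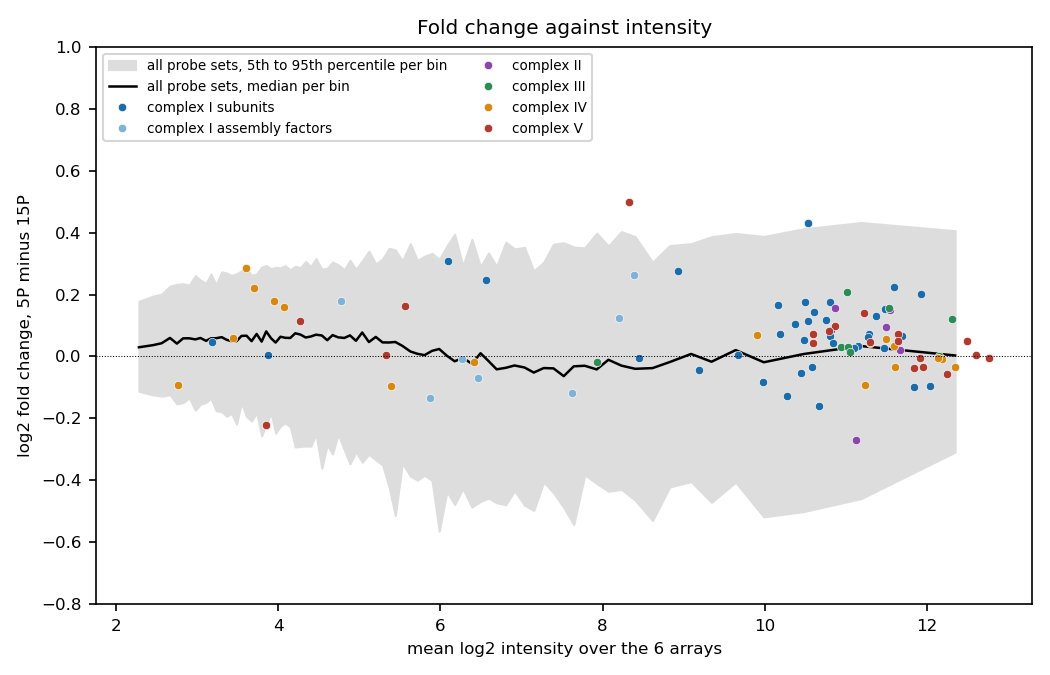
Log2 fold change (y axis, low protein minus control) against mean log2 intensity over the 6 arrays (x axis). Points are the 96 members by complex; the line is the median and the band the 5th to 95th percentile of all probe sets in 80 bins of intensity. Members crowd at high intensity near 0, and the line lies above 0 at low intensity.

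Facts of the whole set of arrays bear on these values. Median intensities on the linear scale were 33.7 to 34.2 on the low-protein arrays and 33.3 to 33.6 on the control arrays. The 75th percentiles were 121.6 to 126.3 and 124.5 to 131.2. On the first principal component, with 36.9% of the variance, the low-protein arrays scored -17.3 to -22.6, and the control arrays scored 26.9, 22.5 and, for replicate 3, 10.1. Without control replicate 3 the calls over all probe sets numbered 109 and those among the members 0. Hepatocyte markers were bright, with a summed intensity over 10 genes of 104800 to 105110 in low-protein livers and 105950 to 108140 in controls. Of these 10 markers 4 were above 0, and Cps1, the first enzyme of the urea cycle, was the only 1 at an unadjusted p under 0.05, at -0.23 (SE 0.091). Red blood cell markers (4 of 7 measured, 3 of them above 0) summed to 4030 to 4294 in low-protein livers and 2845 to 3101 in controls. Most of that sum came from Hbb, at 0.48 (adjusted p = 0.0739), and Alas2 was at 0.43 (adjusted p = 0.112). Slc4a1 had 0.14 (SE 0.11) and Epb42 -0.06 (SE 0.089), both with overlapping groups. Young red cells carry mitochondria, and the part of blood in the values below was not tested. In whole liver, fewer cells of a type and less RNA per cell cannot be told apart.

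Promoters of these genes shared sequence features that the choice by name did not use. A window of 300 bases, from 250 before to 50 after the gene's start, was available from RefSeq (build GRCr8) for 78 of the 86 genes, and not for Atp5pd, Cox4i2, Cox6a1, Cox6c, Cox6c-ps1, Ndufa8, Ndufb9 and Uqcr11. The motif of nuclear respiratory factor 1 (NRF1), searched on both strands as GCGCA, any base and GCGC, was found in 15 of the 78 windows, or 19.2%, against 6.08% of 18999 windows of protein-coding genes. The ETS motif bound by GABP (CCGGAAG) was in 28.2% against 11.2%, and the YY1 motif AAGATGGCG in 14.1% against 2.29%. A GABP match can share its closing letters AAG with the start of a YY1 match. At least 1 of these 3 motifs was present in 41 windows, or 52.6%, against 17.6% of all. The SP1 motif GGGCGG was as frequent in member windows (43.6%) as in all (43.1%), and TGATGNAA, the composite element for ATF4 with C/EBP, was in 1 window, that of Cox6a2, against 3.33% of all. A match is a run of letters and not a measured binding site.

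Of the windows printed here, Ndufb7 had the smallest p of all members, Sdha was the only member lower at an unadjusted p under 0.05, and Uqcrc1 was nearly level between the diets. Capitals mark matches to the motifs above: in Ndufb7 an SP1 and a GABP motif, in Sdha 3 NRF1 motifs, and in Uqcrc1 an NRF1 and a YY1 motif. The windows lie at chr19:41477242-41477541 (minus strand), chr1:30764303-30764602 (plus strand) and chr8:118467973-118468272 (plus strand) of GRCr8, each written 5′ to 3′ in the direction of the gene.
Ndufb7: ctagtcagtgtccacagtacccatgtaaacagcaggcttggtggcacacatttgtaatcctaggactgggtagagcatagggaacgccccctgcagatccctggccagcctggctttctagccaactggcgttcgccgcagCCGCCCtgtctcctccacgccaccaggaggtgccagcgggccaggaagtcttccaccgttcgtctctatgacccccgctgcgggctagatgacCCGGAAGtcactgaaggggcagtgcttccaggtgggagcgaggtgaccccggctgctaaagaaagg
Sdha: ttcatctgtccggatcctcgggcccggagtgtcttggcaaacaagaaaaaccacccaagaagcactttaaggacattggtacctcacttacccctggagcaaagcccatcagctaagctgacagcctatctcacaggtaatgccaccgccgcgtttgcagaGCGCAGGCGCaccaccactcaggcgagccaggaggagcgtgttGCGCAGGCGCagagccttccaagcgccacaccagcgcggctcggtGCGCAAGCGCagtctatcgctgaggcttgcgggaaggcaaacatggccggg
Uqcrc1: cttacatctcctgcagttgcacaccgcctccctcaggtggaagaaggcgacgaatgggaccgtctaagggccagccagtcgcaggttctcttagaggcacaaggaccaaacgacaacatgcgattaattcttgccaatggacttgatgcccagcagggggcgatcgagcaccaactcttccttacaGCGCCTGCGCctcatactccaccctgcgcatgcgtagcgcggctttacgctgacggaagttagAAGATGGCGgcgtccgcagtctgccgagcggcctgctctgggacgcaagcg

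RNA for Nrf1, Gabpa and Yy1 did not pass the test. Nrf1 was at -0.05 (SE 0.099) and Gabpa -0.14 (SE 0.21), with overlapping groups in both. Yy1 read 9.13, 8.94 and 9.13 (log2 intensity) on the low-protein arrays and 9.34, 9.25 and 9.42 on the control arrays. All low-protein values of Yy1 lay below all control values, at -0.27 (SE 0.096, adjusted p = 0.241).

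Complex I, the entry point for NADH, had 30 of 39 subunit probe sets above 0 and a median of 0.07. In 7 probe sets all low-protein values lay above all control values, and in none below; over all probe sets 12.5% separated upward and 9.12% downward. Ndufb7, a small accessory subunit of the membrane arm that faces the intermembrane space, read 10.65, 10.77 and 10.84 on the low-protein arrays and 10.32, 10.30 and 10.34 on the control arrays. The control values were close together (SD 0.022) and the low-protein values all lay above them (SD 0.094), a difference of 0.43 on the log2 scale (SE 0.088, adjusted p = 0.0899), or 35.0% higher. Its adjusted p ranged from 0.0684 with a filter at the median intensity to 0.227 without control replicate 1 among the settings in which it had the smallest p of the members.

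The next subunits by p were Ndufa7, Ndufb9 and Ndufa6, accessory subunits without a redox centre. The dimmer Ndufa7 probe set read 6.20, 6.23 and 6.32 on the low-protein arrays and 6.00, 5.86 and 5.96 on the control arrays. The difference was 0.31 (SE 0.087, adjusted p = 0.167), while the brighter Ndufa7 probe set had 0.18 with overlapping groups. Ndufb9 read 12.02, 11.96 and 12.11 on the low-protein arrays and 11.83, 11.85 and 11.81 on the control arrays, with a fold change of 0.20 (SE 0.085, adjusted p = 0.31). Ndufa6, at 0.23 (SE 0.096, adjusted p = 0.313), read 11.67, 11.64 and 11.80 in low-protein livers and 11.43, 11.60 and 11.41 in controls. The groups of Ndufb9 and Ndufa6 did not overlap, though control replicate 2 of Ndufa6 lay just under low-protein replicate 2. Ndufa5, Ndufab1 and Ndufs6 were the other 3 without overlap, at 0.28, 0.13 and 0.06.

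The parts of complex I that carry out electron transfer were nearly level. The 6 measured core subunits (Ndufs1, Ndufs3, Ndufs7, Ndufs8, Ndufv1 and Ndufv2), which hold the flavin and the iron-sulfur clusters, ran from -0.08 to 0.15 with a median of 0.03, and all 6 had overlapping groups. Of 13 probe sets for the B and C accessory subunits, which belong to the membrane arm, 12 were above 0 with a median of 0.07. Of 14 for the A accessory subunits, with Ndufab1 and without Ndufa4 and Ndufa4l2, 11 were above 0 with a median of 0.10. Of 4 for the accessory subunits Ndufs4, Ndufs6 and Ndufv3, 2 were above 0 with a median of 0.0087. This division into roles was made after the values had been seen, and the difference between roles was not tested. Ndufa4, which carries a complex I name although its protein is now counted with complex IV, had -0.10, and its paralog Ndufa4l2, a gene known for its induction by hypoxia, had 0.005 at a mean log2 intensity of 3.87.

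Among the 7 probe sets of complex I assembly factors, 3 were above 0, and the median was -0.007. Ndufaf4 read 8.66, 8.75 and 8.14 on the low-protein arrays and 8.14, 8.48 and 8.13 on the control arrays. Its values were high on low-protein replicates 1 and 2, while replicate 3 lay among the controls, which gave 0.26 (SE 0.17, adjusted p = 0.504). Ndufaf1 had -0.13 (SE 0.09, adjusted p = 0.515) with all low-protein values below all control values. Ndufaf3 had 0.12 (SE 0.096), and the Ndufaf7 probe sets had 0.18 (SE 0.14) and -0.0067. A list of other genes that build complex I, among them Tmem126a and Tmem186, gave 5 of 8 above 0, none past the test and 1 at an unadjusted p under 0.05. That was Tmem126a, at 0.38 (SE 0.11, adjusted p = 0.181), with Tmem186 at 0.18 (SE 0.092). Dmac1 and Dmac2 were counted with the assembly factors of complexes II to V instead.

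Complex II, which is also the succinate dehydrogenase of the citric acid cycle, was the smallest group, and 4 of its 5 probe sets were above 0, Sdha being the exception. Sdha, the flavoprotein that oxidises succinate, read 11.09, 11.13 and 10.76 on the low-protein arrays and 11.36, 11.19 and 11.24 on the control arrays. Each low-protein value was below each control value, with replicate 3 lowest, and the difference was -0.27 on the log2 scale (SE 0.12, adjusted p = 0.322), or -17.1%. The iron-sulfur subunit gene Sdhb had 0.02 (SE 0.105) with overlapping groups, and it was below 0 with arrays centred on their medians (-0.0055) and with quantile normalization (-0.013). The membrane anchors Sdhc and Sdhd had 0.15 (SE 0.083) and, for 2 probe sets, 0.16 and 0.10. Sdhc read 11.57, 11.69 and 11.60 in low-protein livers and 11.46, 11.44 and 11.51 in controls, without overlap, while both Sdhd probe sets overlapped. The difference between Sdha and the anchors was not tested.

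Complex III had 7 of 8 probe sets above 0 and a median of 0.03, none of them past an unadjusted p under 0.05. Uqcrh, the hinge subunit, read 10.95, 11.15 and 11.25 on the low-protein arrays and 10.91, 11.00 and 10.81 on the control arrays, with a fold change of 0.21 (SE 0.11, adjusted p = 0.394). The groups overlapped at low-protein replicate 1 and control replicate 2. Uqcrfs1, the Rieske iron-sulfur protein, and Uqcrq, a small subunit next to cytochrome b, had 0.16 (SE 0.088) and 0.12 (SE 0.085), both without overlap. Uqcrc1, a core subunit without a redox centre, had 0.03 (SE 0.086), and the Uqcrc2 probe sets had 0.01 and -0.02. Cyc1, the cytochrome c1 of the same complex, is not among the members by its name and had 0.03 (SE 0.097).

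Complex IV had 9 of 17 probe sets above 0 and a median of 0.03. The 10 probe sets of general isoforms ran from -0.09 to 0.07 with a median of -0.0068. Cox4i1, an early-assembling subunit, read 11.44, 11.58 and 11.54 on the low-protein arrays and 11.45, 11.49 and 11.45 on the control arrays. Its groups overlapped and the fold change was 0.06 (SE 0.085). Cox6a1 and Cox8a, the liver-type forms of their subunits, had -0.03 (SE 0.088) and -0.0083 (SE 0.083), and both were above 0 with arrays centred on their 75th percentiles. Cox6b1, which faces the intermembrane space, had -0.09 (SE 0.082) with every low-protein value below every control value. Cox7a2l, a factor of the supercomplex of complexes III and IV, had 0.07 (SE 0.11).

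The 6 tissue-restricted forms were dim, with mean log2 intensities of 2.76 to 4.07, and 5 of the 6 were above 0 with a median of 0.17. The difference from the general isoforms was not tested, and the pseudogene Cox6c-ps1, at -0.10, was counted with neither. Cox6a2, the heart and muscle form of subunit 6a, read 3.68, 3.73 and 3.81 on the low-protein arrays and 3.54, 3.42 and 3.41 on the control arrays, at 0.29 (SE 0.088, adjusted p = 0.192) without overlap. The muscle forms Cox7a1 and Cox8b had 0.16 (SE 0.092) and 0.22 (SE 0.13), and Cox4i2, the form known from lung, had 0.18 (SE 0.13). The testis forms Cox6b2 and Cox7b2 had 0.06 (SE 0.14) and -0.09 (SE 0.093). These 5 genes other than Cox6a2 had overlapping groups.

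Dim probe sets in general were higher on the low-protein arrays. Below the median intensity 67.3% of all probe sets were above 0 with a median of 0.06, against 48.9% and a median of -0.0055 at or above it. Germ cell markers, genes known from the testis, were above 0 in 6 of 6 cases, and their median was 0.19 (summed intensity 93.0 to 96.8 in low-protein livers and 82.6 to 86.6 in controls). Brown adipocyte markers were above 0 in 6 of 6 with a median of 0.13 (231.6 to 456.4 and 166.04 to 211.2). Most of the brown adipocyte sum came from Cidea, brighter than the median probe set, at 0.94 (SE 0.28, adjusted p = 0.184). Striated muscle markers were above 0 in 8 of 12 with a median of 0.07 (1402 to 2011 and 1812 to 2108), Actn2 having the smallest p at 0.28 (SE 0.083). Most of that sum came from a single bright probe set, of Myh1, which was at -0.20 (SE 0.15). At an unadjusted p under 0.05 (limma) were 3 of the 12 muscle markers, 1 germ cell marker and 1 brown adipocyte marker, all higher. The groups did not overlap for 4, 3 and 2 markers of these lists, Mb of the muscle list being lower. Below the median intensity 9.68% of all probe sets had such a p and 16.3% did not overlap. None of these markers can be listed at 0, because RMA gives each probe set a value above 0, and the part of this shift of dim probe sets in the isoform values was not tested.

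Complex V, the ATP synthase, had 14 of 20 probe sets above 0 and a median of 0.05. The 5 genes of its catalytic head ran from -0.06 for Atp5f1a to 0.08 for Atp5f1d, with a median of -0.0044. Atp5f1d, a subunit of the central stalk, was the only 1 of these 5 without overlap. The other genes of that stalk, Atp5f1c and Atp5f1e, had -0.03 and 0.05. The 5 probe sets of the peripheral stalk, which holds the head in place, were all above 0, from 0.05 to 0.14, and all 5 overlapped. Atp5po, at the top of that stalk, had 0.14 (SE 0.093) and 0.12 (SE 0.102) with its 2 probe sets, and Atp5pf had 0.10 (SE 0.09). Atp5mc3, for the c subunit of the rotor ring, had 0.0033 (SE 0.089) and was below 0 with arrays centred on their medians.

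The inhibitor Atp5if1, which binds the catalytic head and stops it from hydrolysing ATP when the membrane potential is lost, had the largest fold change of the members. The brightest of its probe sets read 8.35, 8.67 and 8.70 on the low-protein arrays and 8.16, 8.16 and 7.90 on the control arrays. All 3 low-protein values lay above the controls, a difference of 0.50 on the log2 scale (SE 0.13, adjusted p = 0.139), or 41.3% higher. Without low-protein replicate 1 it was 0.61 (adjusted p = 0.16). The other Atp5if1 probe sets, at mean log2 intensities of 5.64 and 5.33 in low-protein livers, had 0.16 (SE 0.19) and 0.0034 (SE 0.102), both with overlapping groups, so the 3 probe sets of this gene did not give the same picture.

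**Figure D3:**
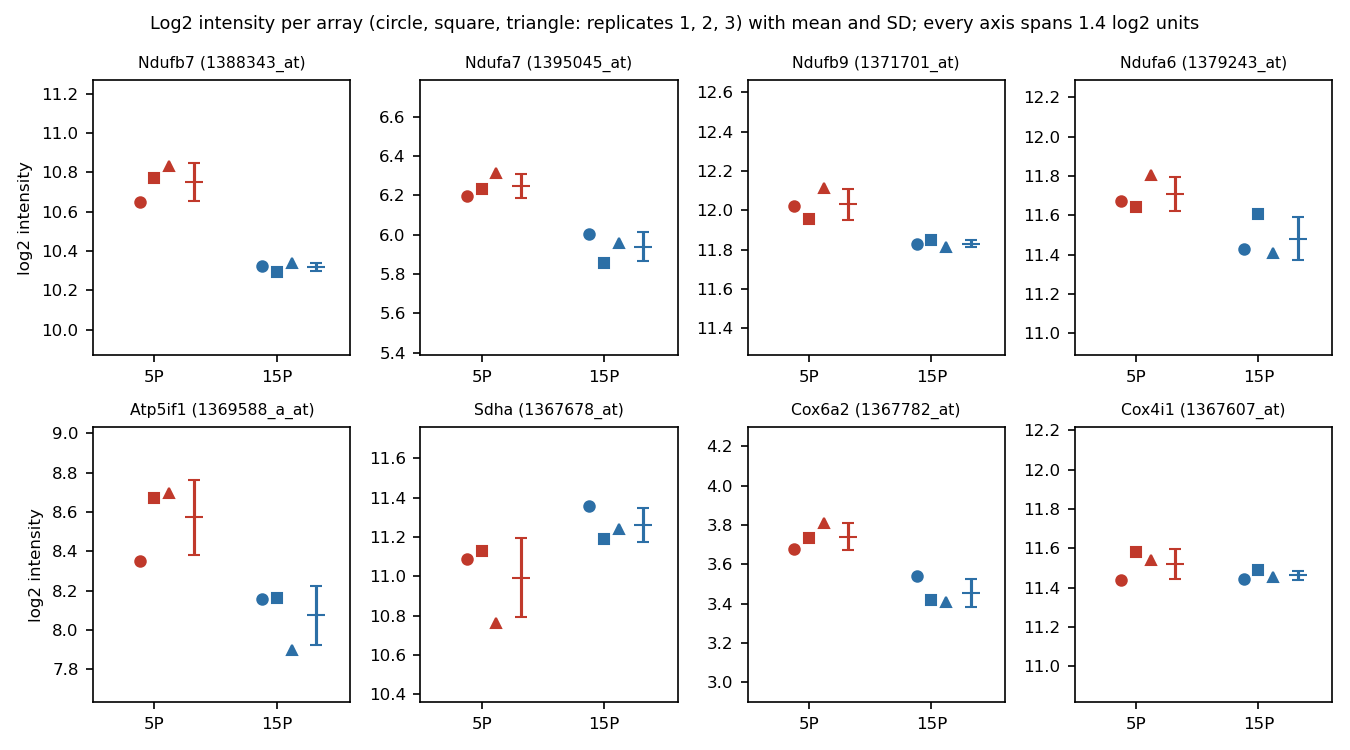
Log2 intensity (y axis) on each array for 8 probe sets, with the low-protein diet (5P) left of the control diet (15P); circles, squares and triangles are replicates 1, 2 and 3, and bars are the mean and SD (n = 3). Sdha lies lower in 5P, Cox4i1 overlaps, and the other 6 lie higher in 5P without overlap. All but Cox4i1 are the 7 members at an unadjusted p under 0.05 (limma), and each gene is shown by its probe set of smallest p. The other probe sets of Ndufa7 and Atp5if1, not shown, overlapped. Of all members 17.7% did not overlap, against 21.6% of all probe sets.

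Disagreement between probe sets of a gene was of the same size as the changes. Of 9 genes with 2 or 3 probe sets, 4 had probe sets of opposite sign. For Ndufv3, a small subunit of the flavoprotein module of complex I, the probe sets had 0.25 (SE 0.14) and -0.16 (SE 0.11), the first being high on low-protein replicates 1 and 2 only. For Atp5me, a membrane subunit, a dim probe set had -0.22 (SE 0.098, adjusted p = 0.333), with low-protein values of 3.81, 3.61 and 3.81 and control values of 3.86, 3.99 and 4.04. The bright Atp5me probe set had 0.04. The largest gap within a gene was 0.50, in Atp5if1, and the smallest was 0.024, in Atp5po. Probe sets of a gene share its RNA but not its target sequence, and they are not replicates.

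The 7 probe sets that name a second gene ran from -0.05 to 0.28. The one for Atp5mc1 and its near copy Atp5mc1l1 had 0.28 (SE 0.14, adjusted p = 0.359), and that for Atp5mc2 and Atp5mc2l1 had 0.15 (SE 0.103). The 3 genes for the c subunit encode the same mature protein, and only Atp5mc3 had a probe set of its own here. The probe set for Cox7a2 and Cox7a2l2 had 0.14 (SE 0.086), and that for Cox5a and a second locus had -0.03 (SE 0.096). Signal of near-identical copies cannot be separated on such a probe set.

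Seen by array, the mean of all 96 members stood 0.03, 0.06 and 0.09 above the control mean on low-protein replicates 1, 2 and 3, against 0.02, -0.02 and 0.003 on the control arrays. The mean over all probe sets stood 0.003, 0.01 and 0.03 above it on the low-protein arrays, against 0.006, -0.008 and 0.001 on the controls. The complexes did not share an order of arrays. Complex I subunits, complex IV and complex V were highest on low-protein replicate 3 (0.13, 0.10 and 0.09), while complex II and complex III were highest on low-protein replicate 2 (0.12 and 0.13). The complex II mean on low-protein replicate 3 was -0.05, below that of control replicate 3 at 0.06.

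**Figure D4:**
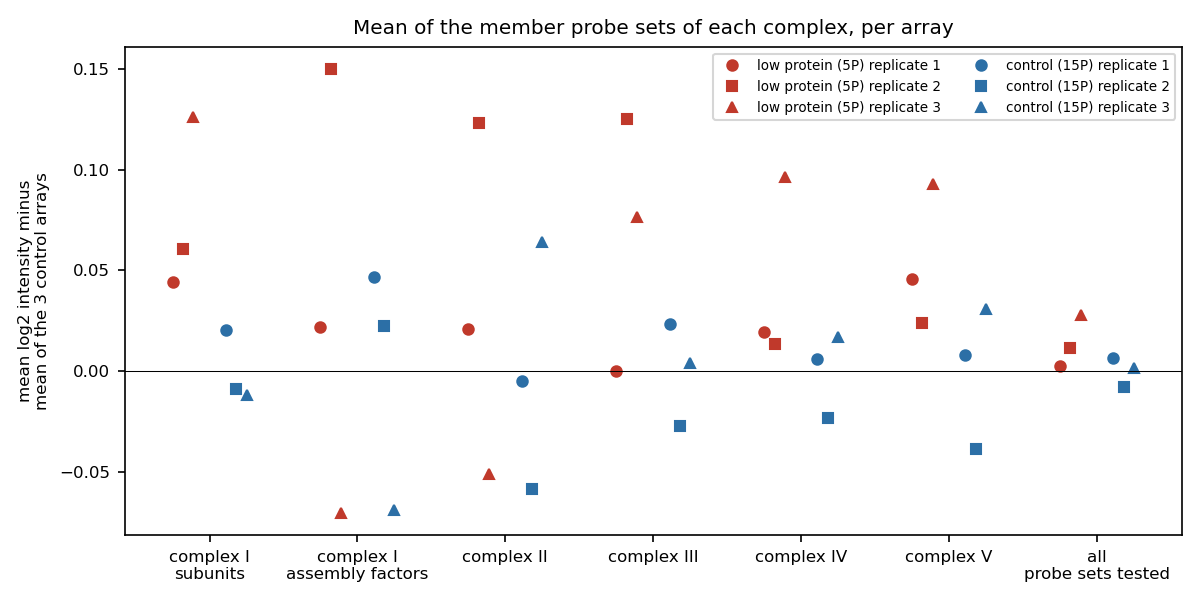
Mean log2 intensity of each complex's probe sets minus its mean over the 3 control arrays (y axis), by complex and for all probe sets (x axis), with 5P left of 15P. Complex I subunits lie higher on all 3 low-protein arrays (0.04 to 0.13), and the arrays of complexes II, III, IV and V overlap.

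The rest of the respiratory pathway held no gene past the test either. The counts at an unadjusted p under 0.05 given for these lists stand against 15.4% of all probe sets and 21.1% of those at or above the median intensity. The 2 measured mitochondrial-encoded subunits, listed as COX1 and COX2 of complex IV, had -0.05 (SE 0.082) and 0.04 (SE 0.086), with none at an unadjusted p under 0.05. Both probe sets lay near the top of the scale, at an intensity percentile of 99.98. Whether so bright a probe set shows a change in full was not tested. Of 15 citric acid cycle and pyruvate dehydrogenase genes 10 were below 0 with a median of -0.04, and the only 1 at an unadjusted p under 0.05 was Pdha1, the E1 alpha subunit of pyruvate dehydrogenase, at -0.28 (SE 0.12, adjusted p = 0.324). Pdhx, which anchors E3 in that complex, had -0.16 (SE 0.1001). Of 32 assembly factors listed for complexes II to V, 22 were above 0 with a median of 0.07 and 2 had an unadjusted p under 0.05. That list also holds Dmac1 and Dmac2, which serve complex I, at 0.0005 and 0.09. Uqcc2, an assembly factor of complex III, read 8.93, 8.81 and 9.08 on the low-protein arrays and 8.57, 8.45 and 8.30 on the control arrays, at 0.50 (SE 0.11, adjusted p = 0.104). Cox10, which makes heme for complex IV, had 0.28 (SE 0.095, adjusted p = 0.229).

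In a list of 9 electron carriers and dehydrogenases linked to coenzyme Q, which includes Cyc1, no gene passed and 3 had an unadjusted p under 0.05, while the other 6 ran from -0.19 to 0.18. Prodh, the first enzyme of proline breakdown, read 9.34, 9.16 and 8.68 on the low-protein arrays and 10.00, 9.75 and 9.73 on the control arrays, at -0.77 (SE 0.17, adjusted p = 0.105). Gpd2, the mitochondrial glycerol 3-phosphate dehydrogenase, read 7.18, 7.08 and 6.74 on the low-protein arrays and 6.14, 6.28 and 6.57 on the control arrays, at 0.67 (SE 0.15, adjusted p = 0.105). Sqor, which oxidises sulfide, averaged 8.18 ± 0.41 on the low-protein arrays and 9.20 ± 0.71 on the control arrays (log2 intensity, SD, n = 3 each), at -1.02 (SE 0.337, adjusted p = 0.215). The groups of these 3 genes did not overlap, nor did those of Etfb, at 0.18 (SE 0.097). That made 4 of the 9 genes, against 21.6% of all probe sets and 26.9% of those at or above the median intensity. The list's median was -0.03. Of 11 genes of coenzyme Q synthesis 6 were above 0, and the 2 at an unadjusted p under 0.05 were both lower, Coq8a at -0.36 (SE 0.099, adjusted p = 0.158) and Coq10b at -0.59 (SE 0.18, adjusted p = 0.19). Coq8a is a kinase-like protein needed for coenzyme Q synthesis, and Coq10b binds coenzyme Q.

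Regulators of mitochondrial biogenesis and of mitochondrial DNA expression (11 of 19 below 0) had a median of -0.07, and 3 had an unadjusted p under 0.05. That median was -0.012 without low-protein replicate 2 and changed sign, to 0.026, without low-protein replicate 3. Pprc1, a coactivator of the PGC-1 family, read 5.99, 6.23 and 5.75 on the low-protein arrays and 6.77, 6.56 and 6.72 on the control arrays, at -0.69 (SE 0.13, adjusted p = 0.0811). Ppargc1a, the coactivator PGC-1alpha that fasting induces, had -0.44 (SE 0.22) with overlapping groups. Tfam, which packages mitochondrial DNA and starts its transcription, had 0.24 (SE 0.087, adjusted p = 0.25) with all low-protein values above the controls. Carriers and channels for ATP export and uncoupling (11 of 12 above 0) had a median of 0.09, none at an unadjusted p under 0.05. Without control replicate 2 this median was 0.0062. Of all probe sets 58.1% were above 0, and of those below the median intensity 67.3%. Ckmt1, Ckmt2, Ucp1 and Slc25a31 of the list lay below that intensity. Ucp3, an uncoupling protein, had 0.20 (SE 0.099), and Vdac2, an outer membrane channel, had 0.19 (SE 0.1002).

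Markers of other liver cells were compared because the samples are whole liver. Kupffer cell and leukocyte markers (7 of 9 above 0) had a median of 0.11, Cd68 at 0.43 (SE 0.2) and C1qa at 0.31 (SE 0.14), and their summed intensity was 4501 to 6674 in low-protein livers and 3781 to 5294 in controls. Stellate cell and fibroblast markers were above 0 in 6 of 8 with a median of 0.09 (1845 to 2905 in low-protein livers and 1898 to 3197 in controls). Endothelial markers were above 0 in 1 of 5 with a median of -0.07 (1296 to 1704 and 1363 to 1681), and bile duct markers in 1 of 4 with a median of -0.20 (199.7 to 278.8 and 252.2 to 411.4). No marker of these lists passed the test, and 2 of them, Krt19 and Epcam of the bile duct list at -0.39 (SE 0.13) and -0.55 (SE 0.23), had an unadjusted p under 0.05.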

How the data were processed

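Rat liver RNA was hybridised to 6 Affymetrix arrays. The deposited values are linear intensities, 1 for each probe set and array, and the submitters' processing notes name RMA without a version. Because RMA equalises the distributions of the arrays, a shift common to most genes would be lost from the authors' values. Here log2 of the deposited intensities was taken. Leaving out 57 control probe sets left 31042, which were tested with no filter. Symbols came from the platform annotation; all 96 members matched RefSeq (GRCr8) by gene ID and 0 symbols changed.

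Low protein was compared with control by limma 3.58.1 (lmFit, eBayes, two-sided; 4 residual and 8.38 total degrees of freedom) in R 4.3.3, adjusted by Benjamini-Hochberg across the 31042, threshold 0.05. Intervals are 95% intervals of that model, unadjusted. Lists used the probe set of highest mean per gene and had no set test. The procedure was tested on simulated data. Arrays have no read depth; 3 arrays a diet limit the precision. Figures used matplotlib 3.10.9 in Python 3.11.15.

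Named genes were the 4 of smallest p per complex, isoform families, the inhibitor, all Sdh genes and up to 2 of smallest p per list; other names were chosen after their values were seen. Members and lists were chosen with earlier results of these data known. Alternatives were a replicate block, prior variance, scaling, intensity filters, array weights, each array left out, and genes in place of probe sets.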

Additional observations from a re-analysis of the deposited data

How the results depend on the processing

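No member passed the test in any of the 15 refits, and the smallest adjusted p of a member (limma) lay between 0.0684 and 0.227. The counts over all probe sets, 11 that rose and 30 that fell, were less steady. They were 27 and 75 with array weights, 23 and 80 with a robust prior variance, and 3 and 3 with the replicate number as a block (replicate block), in which the smallest adjusted p of a member was 0.184. With arrays centred on their medians 65 fell, and with arrays centred on their 75th percentiles 24 rose. Leaving out 1 array gave 2 (without control replicate 2) to 27 (without control replicate 3) that rose, and 13 (without control replicate 1) to 82 (without control replicate 3) that fell. The cause was not tested.

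The median change of the 96 members, 0.05, was 0.024 when arrays were centred on medians and 0.10 when they were centred on 75th percentiles. These centrings moved the median of all probe sets by -0.027 and 0.049. With 75th percentile centring complex I subunits were at 0.11, complex IV at 0.082 and complex V at 0.097. Complex IV was at -0.0054 and -0.0083 with intensity filters at the 25th percentile and the median, -0.0083 without the tissue-restricted isoforms, 0.0060 with median centring and 0.0031 with quantile normalization. With 1 array left out, medians ran from 0.058 to 0.098 for complex I subunits, -0.063 to 0.11 for its assembly factors, 0.069 (without control replicate 1) to 0.15 (without control replicate 3) for complex II, 0.0048 to 0.086 for complex III, -0.012 to 0.069 for complex IV and 0.021 (without low-protein replicate 3) to 0.061 (without low-protein replicate 2) for complex V.

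Some genes near 0 changed sign. Sdhb was at -0.0055 with median centring, -0.013 with quantile normalization and -0.056 to 0.085 with 1 array left out. Atp5mc3 was at -0.024, -0.017 and -0.036 to 0.055 in the same settings. With 75th percentile centring Cox6a1 was at 0.015 and Cox8a at 0.041. With 1 array left out Cox6a1 ran from -0.068 to 0.0077, Cox8a from -0.046 to 0.011, Uqcrc1 from -0.014 to 0.070, Cox6b2 from -0.10 to 0.19, and Cox7a2l from -0.031 to 0.13, while COX2 ran from -0.00036 to 0.085 and the endothelial markers Stab2 and Kdr from -0.18 to 0.040 and -0.15 to 0.052.

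With 3 arrays a diet the precision is limited to the stated intervals, and the muscle and testis isoforms were measured near the low end of the intensities. Same-numbered arrays of the 2 diets did not deviate together (correlations of their deviations -0.087, -0.027 and -0.10), so the numbers were not taken as pairs.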
